A study of Mus musculus with 13 samples.

Results

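The 11 DNA barcodes described here were dominant in immunodeficient and not in immunocompetent hosts, taking bone marrow and spleen together. They were selected on their measured levels out of 2505 barcodes. Levels are CPM, reads scaled to a library total of 1000000, so that 10000 CPM is 1% of a library. For each mouse, the level of a barcode was averaged over bone marrow and spleen. A barcode was kept where this mean reached 10000 CPM in 1 or more of 3 NSG mice and stayed under it in each of 3 Ptprca mice. Because the barcodes were chosen by a difference between strains, strain values are given below as a description, with no test.

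All libraries came from c-Kit positive mouse haematopoietic progenitors that carried the SPLINTR barcode library and gave rise to MLL-AF9 leukaemia in transplanted mice. Ptprca mice 1, 2 and 3 and NSG mice 4, 5 and 6 were sampled at disease, with 1 bone marrow and 1 spleen library of sorted viable cells each. A single baseline library came from the progenitors. The labels give no age of the animals, no cell dose and no interval to disease. The design sets an immunocompetent against an immunodeficient host, and the strains differ in more than 1 immune cell type.

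A barcode of this kind is a short tag that sits in the genome of a transduced cell and passes to every daughter cell. The share of a tag among all tags is read as the size of the clone that descends from that cell. MLL-AF9 is a fusion oncogene of acute myeloid leukaemia that turns progenitors into leukaemic cells. NSG mice lack T, B and natural killer cells, whereas Ptprca mice, congenic with C57BL/6, have them. Because a library is a set of shares, the growth of 1 clone and the shrinkage of others cannot be told apart.

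A library held 2484519 to 5252942 reads, split over 2 technical repeats whose CPM values were averaged. In the bone marrow of Ptprca mouse 3 the repeats were very unequal, at 2314066 and 170453 reads, yet counted alike in the mean. Repeats disagreed most in the NSG spleens. Barcodes of 100 to 1000 CPM had a log2 ratio of one repeat to the other with an SD of 2.26, 1.57 and 1.71 for spleens 4, 5 and 6, and of at most 0.585 for any other library. Of the 122 member values above 0, 93 could be resolved into both repeats. Among those at 100 CPM or more, the higher repeat exceeded the lower by a median factor of 1.08 in 60 values outside NSG spleens (highest 1.99) and by 1.49 in 12 values from NSG spleens (highest 12.2). The 29 member values that could not be resolved started at 2522 CPM. They include most values at 10000 CPM or more, which thus have no repeat check. The floor of a library, set at 3 reads in the shallower repeat, lay between 0.575 and 8.80 CPM. Floors and intervals cover counting error only, since PCR copies of 1 molecule cannot be told apart here.

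The 11 barcodes differed in the number of mice they reached. Only GFP_Barcode_52804 and GFP_Barcode_101924 were at 1% or more, as the mean of both organs, in all 3 NSG mice. GFP_Barcode_44971 and GFP_Barcode_22108 were so in 2 mice, and the other 7 in a single mouse. Of these 7, 4 belonged to mouse 4 and 3 to mouse 5. Mouse 4 had 8 of the 11 barcodes at or above the limit, mouse 5 had 7 and mouse 6 had 2.

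GFP_Barcode_52804 was the largest clone of every NSG library. It held 23.4%, 18.7% and 17.9% of the bone marrow of mice 4, 5 and 6, and 70.7%, 23.7% and 52.0% of their spleens. In Ptprca mice 1, 2 and 3 it held 0.262%, 0.269% and 0.266% of bone marrow and 0.317%, 0.184% and 0.361% of spleen. The lowest NSG library was thus far above the highest Ptprca library in both organs. The Ptprca bone marrows were nearly equal, with a mean of 0.266% ± 0.00355 (SD, n = 3).

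This clone was not lost in Ptprca mice. Its baseline share was 0.0560% (Wilson 95% limits 0.0540% and 0.0582%), which ranked 323. Ptprca mice 1, 2 and 3 held, as the mean of both organs, 5.16, 4.05 and 5.59 times the baseline share. For NSG mice 4, 5 and 6 this ratio was 839.5, 378 and 624. Its rank in Ptprca libraries ran from 26 to 38 in spleen and from 68 to 69 in bone marrow. All 6 Ptprca values were resolved into repeats, and the higher repeat exceeded the lower by a factor of 1.35 at the most. Its 6 NSG values could not be resolved, so they have no repeat check.

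GFP_Barcode_101924 was the other clone at 1% or more in all 3 NSG mice, but at much lower shares. Bone marrow of mice 4, 5 and 6 held 1.50%, 0.409% and 3.19%, and spleen 2.48%, 2.51% and 0.0760%. The organ that held more of it differed, being 6.13-fold higher in the spleen of mouse 5 and 42.0-fold higher in the bone marrow of mouse 6. Ptprca bone marrows held 0.810%, 1.11% and 0.0794%, and Ptprca spleens 0.598%, 0.160% and 0.0873%. The strains overlapped in each organ, and the bone marrow of Ptprca mouse 2 was itself over 1%. Its baseline share was 0.403%, at rank 41.

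GFP_Barcode_44971 passed the limit in mice 4 and 5. Its NSG bone marrows held 1.34%, 0.371% and 1.22%, and its NSG spleens 0.867%, 4.14% and 0.138%, in mice 4, 5 and 6. In Ptprca mice it held 0.0607%, 0.476% and 0.567% of bone marrow and 0.0316%, 0.389% and 0.0925% of spleen. Each of the 6 NSG libraries was above the baseline share of 0.106%, and so were 3 of the 6 Ptprca libraries. The strains overlapped in both organs.

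GFP_Barcode_22108 was dominant only in NSG mice by the rule, but not in bone marrow. Ptprca bone marrows held 1.73%, 1.28% and 1.76%, all over 1%, and NSG bone marrows 1.89%, 0.962% and 1.04%. The strains came apart in spleen, at 0.233%, 0.109% and 0.112% in Ptprca and 0.914%, 1.35% and 0.331% in NSG mice. At baseline this was the 11th most abundant barcode, at 1.15% (95% Wilson interval 1.14% to 1.16%), and no library exceeded that share by more than 1.64-fold. Its highest Ptprca mean over both organs was 9816 CPM, just under the limit. With all Ptprca bone marrows over the limit, the rule could hold only with lower Ptprca spleens. For this barcode the name of the group describes Ptprca spleens and not Ptprca bone marrow.

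Such exceptions are limited by the rule, which held the mean of both organs under 10000 CPM in each Ptprca mouse. Of the 66 values of these barcodes in Ptprca libraries, 5 were at 10000 CPM or more, all in bone marrow. Of the 5, 3 belonged to GFP_Barcode_22108 and the others to GFP_Barcode_101924 in mouse 2 and GFP_Barcode_22615 in mouse 3.

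A set of 4 barcodes passed the limit in mouse 4 alone. GFP_Barcode_113643 held 1.89% of its bone marrow and 1.44% of its spleen. Mouse 5 followed with 0.874% and 0.848%, and mouse 6 with 0.252% and 0.307%. In Ptprca mouse 3 it held 0.411% of bone marrow and 0.0660% of spleen, whereas Ptprca mice 1 and 2 had 9.24 and 15.9 CPM in bone marrow and 19.5 and 18.2 CPM in spleen. Those 4 values were below its baseline of 532 CPM, and all other disease libraries were above it. The strains overlapped in bone marrow through Ptprca mouse 3 but not in spleen. Within an NSG mouse its bone marrow and spleen levels differed by at most 1.31-fold.

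GFP_Barcode_19083 and GFP_Barcode_33008 each filled 1 organ of mouse 4 and little of the other. GFP_Barcode_19083 held 3.31% of the bone marrow of mouse 4 and 69.8 CPM of its spleen, a 475-fold difference. Elsewhere in NSG mice it was at 4.07 CPM and 0.0661% in the bone marrow of mice 5 and 6, at 0 in the spleen of mouse 6, and at 0.312 CPM in the spleen of mouse 5, below that library's floor of 0.937 CPM. Ptprca bone marrows of mice 1, 2 and 3 had 65.5 CPM, 0.0381% and 6.30 CPM, the last below a floor of 8.80 CPM. Ptprca spleens had 8.15 CPM, 0.0295% and 0. GFP_Barcode_33008 showed the opposite organ, with 2.15% of the spleen of mouse 4, a value with no repeat check. This barcode held 0.0234% of the bone marrow of mouse 4, a 92.0-fold difference. It was at 14.5 CPM in the bone marrow of mouse 5 and at 0 in the remaining 3 NSG libraries. In Ptprca mouse 1 it held 0.0164% of bone marrow and 0.0197% of spleen, and 78.3 and 86.6 CPM in mouse 2. In mouse 3 it had 6.73 CPM, below the floor, and 5.36 CPM. Outside mouse 4, then, Ptprca mice 1 and 2 held more of this barcode than NSG mice 5 and 6.

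GFP_Barcode_32021 also owed its place to the spleen of mouse 4, at 1.90%, a value with no repeat check. The bone marrow of that mouse held 0.167%, and mice 5 and 6 held 0.403% and 0.245% of bone marrow and 0.120% and 0.158% of spleen. Ptprca mouse 3 held 0.920% of bone marrow, above all 3 NSG bone marrows, and 0.182% of spleen. In Ptprca mice 1 and 2 it held 0.214% and 0.0886% of bone marrow and 0.0804% and 0.0218% of spleen. All 6 NSG libraries and 5 of the 6 Ptprca libraries were above its baseline share of 0.0542%. The bone marrow value of Ptprca mouse 3 rested on repeats at 7221 and 11170 CPM.

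A further 3 barcodes passed the limit in mouse 5 alone. GFP_Barcode_22615 held 4.40% of the spleen and 0.447% of the bone marrow of mouse 5. The bone marrows of mice 4 and 6 had 0.288% and 0.102%, and their spleens 0.0232% and 0.152%. Ptprca bone marrows had 0.503%, 0.166% and 1.43%, so that the mean of the strain, 0.698% ± 0.652, was above the NSG mean of 0.279% ± 0.173 (SD, n = 3 each). Ptprca spleens had 0.0538%, 0.0409% and 0.0566%. The value in the spleen of mouse 4 rested on repeats at 428 and 35.2 CPM. That in the bone marrow of Ptprca mouse 3 rested on repeats at 11588 and 16920 CPM.

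GFP_Barcode_43269 was nearly a single-library clone. It held 3.50% of the bone marrow of mouse 5 and 9.03 CPM of its spleen, a 3879-fold difference. Among the other 10 disease libraries it was found in 2, at 0.0126% in the bone marrow of mouse 6 and 23.2 CPM in that of Ptprca mouse 1. GFP_Barcode_3229 was also found mainly in mouse 5, but in both organs, at 1.32% of bone marrow and 1.60% of spleen, a 1.21-fold difference. It was at 0 in 8 of the 12 disease libraries, at 1.79 CPM in the bone marrow of mouse 4 and at 11.9 CPM in that of Ptprca mouse 1. All Ptprca spleens were at 0, and the mean of the NSG spleens was at least 8967-fold higher than the mean of their floors, a bound that rests on mouse 5 alone.

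The trace of both barcodes in Ptprca mouse 1 has a wider setting. Among barcodes with at least 1000 CPM in the bone marrow of NSG mouse 5 and none in Ptprca mice 2 and 3, 15 of 15 were above 0 in the bone marrow of Ptprca mouse 1, against 3 of 15 in its spleen. The part of this overlap in the low values of Ptprca mouse 1 was not tested. With both bone marrow libraries left out, so that the spleen stood for these mice, GFP_Barcode_43269 no longer met the rule and the other 10 did. The bone marrow of mouse 5 was the only library where GFP_Barcode_43269 reached the limit. Its loss thus follows by construction, and nothing about the overlap is read from it.

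Starting sizes covered a wide range. Baseline values ran from 19.3 CPM for GFP_Barcode_33008 to 11506 CPM for GFP_Barcode_22108, with a median of 560 CPM. Over the 2394 barcodes present at baseline the median was 50.2 CPM, and 2 of the 11 were below it. The 12 barcodes dominant in both strains had a baseline median of 1033 CPM, and the 27 dominant only in Ptprca mice one of 423 CPM. No barcode of the 3 groups was absent at baseline. Together the 11 held 2.37% of the baseline library (95% Wilson interval 2.36% to 2.39%).

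The highest share over baseline differed widely too. The highest library of GFP_Barcode_43269 was 1615 times its baseline of 21.7 CPM, that of GFP_Barcode_52804 was 1261 times and that of GFP_Barcode_33008 was 1114 times. Among 1761 barcodes with a baseline level of at least 10 CPM, 5 reached 1000 times their starting share in some disease library, and these 3 were among them. Next came GFP_Barcode_19083 at 253 times, while GFP_Barcode_44971, GFP_Barcode_113643 and GFP_Barcode_32021 were at 38.9, 35.6 and 35.0 times. GFP_Barcode_22615 reached 20.0 times, GFP_Barcode_101924 7.92 times, GFP_Barcode_3229 5.14 times and GFP_Barcode_22108 1.64 times. In 4 of the 11 every NSG library was above baseline. With 1 baseline library these ratios have no replicate check, and as highest values they are tied to the rule.

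Both groups of hosts can be set side by side for the sum of the 11 barcodes, again as a description. They made up 28.3% ± 5.05 of NSG and 4.16% ± 1.10 of Ptprca bone marrow, and 57.4% ± 21.2 of NSG and 1.08% ± 0.222 of Ptprca spleen (SD, n = 3 each). The 10 barcodes other than GFP_Barcode_52804 made up 8.28% ± 2.14 of NSG and 3.89% ± 1.10 of Ptprca bone marrow. In spleen these 10 held 9.78%, 15.0% and 1.16% in NSG mice 4, 5 and 6 and 1.02%, 0.760% and 0.597% in Ptprca mice. The spleen of mouse 6 was thus near the Ptprca spleens in the 10 barcodes, and GFP_Barcode_52804 alone filled 52.0% of it.

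In single barcodes, all 3 NSG libraries exceeded all 3 Ptprca libraries for 1 of the 11 in bone marrow, GFP_Barcode_52804, where 10.2% of the 373 barcodes with enough reads were so ordered. In spleen this held for 3 of the 11, GFP_Barcode_52804, GFP_Barcode_113643 and GFP_Barcode_22108, against 4.02% of the 373. Since the rule used this contrast, nothing is read from either count.

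The rule averaged the organs of a mouse and did not compare them. A limit on the mean still bounds each organ, so the organ differences below are not free of the selection. Counting each barcode in each NSG mouse where it passed the limit gave 17 cases. In 6 of the 17 (35.3%) the barcode was at 1% or more in both organs, in 5 in bone marrow only and in 6 in spleen only. The barcodes dominant in both strains were at 1% in both organs in 13 of 26 cases (50.0%) in NSG mice, and the barcodes dominant only in Ptprca mice in 11 of 40 cases (27.5%) in Ptprca mice. The cases share mice and libraries, so these shares were not tested against each other.

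Spleen and bone marrow were then tested with limma on log2(CPM + 1), over the 373 barcodes that reached 10 CPM in 3 or more disease libraries. All 11 passed this filter. GFP_Barcode_3229 did so through both organs of mouse 5 and the trace in Ptprca mouse 1, and GFP_Barcode_43269 through the bone marrows of mice 5 and 6 and that trace. In NSG mice 0 of the 11 were called at a Benjamini-Hochberg adjusted p of 0.05, where 0.268% of all tested barcodes were called, and 0 of the 11 had an unadjusted p under 0.05 by limma, against 42 of the 373. The median spleen minus bone marrow difference was -0.10 in the 11 and -1.66 in all 373, and 1.92 and 0.36 after each library was centred on its tested barcodes. With the mouse as a block, 4 of 373 were called in place of 1, and again 0 of the 11, with 2 of the 11 and 83 of the 373 at an unadjusted p under 0.05. A miss at this size does not show that the organs were alike.

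GFP_Barcode_52804 was higher in spleen in 3 of 3 NSG mice, by 3.01-fold, 1.27-fold and 2.91-fold in mice 4, 5 and 6. The difference fitted by limma to log2(CPM + 1) was 1.16 (SE 0.63, adjusted p = 0.459), and 3.18 (SE 0.71, limma adjusted p = 0.0639) after centring. GFP_Barcode_19083 was lower in spleen in 3 of 3 NSG mice, at -6.73 (SE 3.25, limma adjusted p = 0.439). In mouse 5 this rests on 4.07 CPM in bone marrow and 0.312 CPM in spleen, the latter below the floor. For GFP_Barcode_43269, at 0 in both organs of mouse 4, the difference was -6.25 (SE 3.00, limma adjusted p = 0.439). The remaining barcodes ran in different directions in different mice. None of the 3 differences passed the correction. With the mouse as a block, the limma adjusted p was 0.301 for GFP_Barcode_52804 (SE 0.62) and 0.0772 for GFP_Barcode_19083 (SE 1.92). For GFP_Barcode_43269 the block gave a limma adjusted p of 0.128 (SE 2.10), so none passed there either.

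In Ptprca mice the same contrast called 0 of the 11 and 0% of all 373 barcodes. An unadjusted p under 0.05 was found by limma for 1 of the 11 and 8 of 373. That barcode was GFP_Barcode_22108, lower in spleen in 3 of 3 mice, with a fitted difference of -3.47 in log2(CPM + 1) (SE 0.89, limma adjusted p = 0.412). With each Ptprca bone marrow over 10000 CPM, it could meet the rule only with a lower spleen in each Ptprca mouse. Nothing is therefore read from its direction or its unadjusted p. GFP_Barcode_22615, GFP_Barcode_44971, GFP_Barcode_19083 and GFP_Barcode_32021 were also lower in spleen than in bone marrow in each of the 3 Ptprca mice. For GFP_Barcode_19083, mouse 3 had only 6.30 CPM in bone marrow, below the floor, and 0 in spleen. A lower spleen was common, as 71.0% of all 373 barcodes and 9 of the 11 had a negative fitted difference. How many of the 373 were lower in each of the 3 mice was not counted. The median difference was -1.28 in the 11 and -0.84 in all 373, and -0.45 and -0.01 after centring. With the mouse as a block, 2 of the 11 and 17 of the 373 had an unadjusted p under 0.05 by limma. None was called, and the limma adjusted p of GFP_Barcode_22108 was 0.652 (SE 0.83).

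An interaction term tested the strains' organ differences against each other. It was called for 0 of the 11 and 0% of the 373, with 1 of the 11 and 15 of the 373 at an unadjusted p under 0.05 by limma. The 1 was GFP_Barcode_22108, at 2.74 (SE 1.25, limma adjusted p = 0.997), whose spleen minus bone marrow difference was -3.47 in Ptprca and -0.74 in NSG mice. Its lower share in each Ptprca spleen was required by the rule, so this term is tied to the selection too. A difference between the strains in this respect did not pass the correction. With the mouse as a block, 1 of the 11 and 23 of the 373 had an unadjusted p under 0.05 by limma, and none was called.

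For each barcode the most similar pattern among the 373 was sought, as the lowest SD over the 12 disease libraries of the difference in log2(CPM + 1). GFP_Barcode_113643 was matched by GFP_Barcode_38818 with an SD of 0.272, where the median over all 373 barcodes of the SD to their closest partner was 1.61 and 6 barcodes had a lower one. GFP_Barcode_38818 was at 5488 and 5918 CPM in the bone marrow and spleen of mouse 4, and at 3.32 CPM in the bone marrow of Ptprca mouse 1. Its ratio to GFP_Barcode_113643 was 0.290 to 0.410 in the 8 disease libraries with both at 10 CPM or more. In the baseline library, which the match did not use, the ratio was 0.315. The pair thus held a similar proportion in the progenitors and in these 8 libraries, and 0.207 to 0.481 in the 4 libraries where it was scarce.

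GFP_Barcode_43269 had a partner too. GFP_Barcode_17839 followed it with an SD of 0.560, but both were at 0 in 8 of the 12 disease libraries, which lowers this SD. Where both were above 0, the ratio was 0.381 in the bone marrow of mouse 5, 0.692 in its spleen, 0.398 in the bone marrow of mouse 6 and 0.473 in that of Ptprca mouse 1. At baseline it was 0.416. GFP_Barcode_22108 was closest to GFP_Barcode_156408, with an SD of 0.901 and a ratio from 0.0408 to 0.444. The closest partners of the other 8 had SDs between 1.35 and 2.72, which spans the median of all 373. GFP_Barcode_52804, at 2.06 from GFP_Barcode_56798, had no close companion among them.

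Several barcodes lay close to the limit. The lowest barcode inside was GFP_Barcode_32021, with a highest NSG mean of 10324 CPM. Just outside were GFP_Barcode_28531, GFP_Barcode_585 and GFP_Barcode_15798, with highest NSG means of 9504, 9457 and 9209 CPM. GFP_Barcode_27920 was left out because Ptprca mouse 3 reached 14823 CPM, although Ptprca mice 1 and 2 were at 42.2 and 2332 CPM and the lowest NSG mouse was at 11909 CPM. GFP_Barcode_14093 and GFP_Barcode_18532 were left out with highest Ptprca means of 15797 and 18505 CPM.

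The size of GFP_Barcode_52804 also bears on who passed. With it removed and each library rescaled to its other barcodes, 22 barcodes met the rule in place of 11, among them all 10 others. GFP_Barcode_38818 then joined GFP_Barcode_113643, at 13667 and 36949.5 CPM in mouse 4. In that mouse the 10 barcodes made up 33.3% of the remaining spleen library and 13.6% of the remaining bone marrow library, against 2.42% and 7.47% in mouse 6.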

How the data were processed

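Barcodes were amplified from genomic DNA of sorted cells by PCR, per the labels' protocols, with lysates split into technical replicates. Bowtie 1.2.2 and R 3.6 appear in the submitters' processing notes, and the settings of neither are stated there. The authors deposited CPM values per barcode and library, each library summing to 1000000. Every one of the 2795 values under 60 CPM was built from whole numbers of 2 step sizes (to 1e-06 CPM), as a mean of 2 repeats gives. All 5093 values above 0 and under 1000 CPM resolved into the reads of both repeats. No count model was fitted to such means.

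Groups and mouse numbers came from sample titles. Contrasts were fitted to log2(CPM + 1) in R 4.3.3 with limma 3.58.1, as 4 group means over 12 libraries with a variance trend. Adjustment by Benjamini-Hochberg ran over 373 barcodes. Tested on simulated data, the step search recovered the repeats, while the fit called few of the changed barcodes and no unchanged one. Bone marrow and spleen with 1 mouse number come from 1 animal. Their deviations from group means correlated at 0.773 to 0.796 in the Ptprca mice and at 0.208 to 0.254 in the NSG mice. Counts and ratios used Python 3.11.15, pandas 2.3.3 and statsmodels 0.14.6. The barcodes named are the 11, those next to the limit, the barcode called in the main fit, and some closest partners. Those are the partners of GFP_Barcode_113643, GFP_Barcode_43269, GFP_Barcode_22108 and GFP_Barcode_52804. Other partners, unless next to the limit, and barcodes called only in other settings are not named. A further 3 in the closing section were picked after their values were seen. Members, lists and tests were chosen with earlier results of these data known. The alternative without 2 bone marrow libraries was added after seeing the data.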

Additional observations from a re-analysis of the deposited data

How the results depend on the processing

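Wherever they were tested, none of the 11 barcodes was called in any of the 3 organ contrasts over 17 settings, the main one included (lowest limma adjusted p = 0.0639, for GFP_Barcode_52804 in NSG mice under centring). The number meeting the rule, 11, was 22 at a limit of 5000 CPM (7 shared), 6 at 20000 CPM (3 shared), 15 with bone marrow alone (6 shared), 16 with spleen alone (9 shared), 19 with the higher of both organs (8 shared), 22 after rescaling without the most abundant member, and 7 to 13 as single mice were dropped, 7 without mouse 4. Between organs of NSG mice the 1 call over all barcodes (GFP_Barcode_9344, lower in spleen, limma adjusted p = 0.0137) became 0 unfiltered, 0 under centring, 4 with the mouse as a replicate block, 0 when bone marrow of mice 1 and 5 was dropped, and 0 to 2 as single mice were dropped. The interaction had 0 to 1 calls as single mice were dropped, 1 when it was mouse 5. The block changed no other call. After centring, 9 of the 11 organ differences in NSG mice were positive, in place of 4. Centring shifts all barcodes alike, and the median of all 373 moved from -1.66 to 0.36. Before it, 81.8% of the 373 and 7 of the 11 were negative. How many of the 373 were positive after centring was not counted, so the change of sign is not read as a trait of the 11. The summed share in the 6 NSG libraries, 42.8%, was 14.4% of the rest without the most abundant member. The baseline share, 2.37%, was 2.43% at 5000 CPM and 2.30% at 20000 CPM. The cause of these changes was not tested, beyond what fewer mice or another limit bring by construction. NSG spleen values carry the widest repeat error.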

Other observations

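Among the 12 barcodes that met the rule only after GFP_Barcode_52804 was removed and libraries were rescaled, GFP_Barcode_94, GFP_Barcode_68423 and GFP_Barcode_50242 were at 0 in all 6 Ptprca libraries. GFP_Barcode_94 had a rescaled mean of 22848 CPM in NSG mouse 4, 24.9 CPM in mouse 5 and 115 CPM in mouse 6. GFP_Barcode_68423 was at 15977 CPM in mouse 6, 9.66 CPM in mouse 5 and 0 in mouse 4. GFP_Barcode_50242 was at 10409 CPM in mouse 6, 3261 CPM in mouse 4 and 101 CPM in mouse 5. These 3 were named after their values were seen.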
